A study of Mus musculus with 5 samples.

Results

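The opioid genes described here are the 4 precursors of the endogenous opioid peptides (Pdyn, Penk, Pomc and Pnoc) and the 4 opioid receptors (Oprk1, Oprd1, Oprm1 and Oprl1), 8 of the 55573 genes in the table. They were chosen by gene symbol, and the group was chosen with the tumour and normal values of these libraries known, so every tumour and normal value of these 8 genes is given as a description, with no test. RNA sequencing was done on 3 tumours of Th-Cre:MYC mice and on normal pancreas of 2 wild-type littermates. In the Th-Cre:MYC mice the promoter of tyrosine hydroxylase, a gene of catecholamine-producing cells, drives Cre, which removes a stop in front of a MYC transgene under the general CAG promoter. Any cell that has used the tyrosine hydroxylase promoter can therefore carry the switched-on transgene. In the title of the series the mice are a model of neuroblastoma, whereas its design text speaks of pancreas tumours and asks how their expression differs from that of normal pancreas. Normal pancreas was perfused with an RNase inhibitor before removal, and no label says this of the tumours. The titles of tumour replicates 1 and 2 share a number that replicate 3 does not have. No label says that each library came from a separate animal, so p-values measure the spread between these samples only.

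Opioid peptides are cut from larger precursor proteins by prohormone convertases inside the secretory granules of neurons and endocrine cells. Prodynorphin (Pdyn) yields the dynorphins and neo-endorphins, which prefer the kappa receptor Oprk1. Proenkephalin (Penk) yields the enkephalins, which prefer the delta receptor Oprd1 and also act at the mu receptor Oprm1. Pro-opiomelanocortin (Pomc) yields beta-endorphin as well as corticotropin and the melanocortins, and prepronociceptin (Pnoc) yields nociceptin, the ligand of Oprl1. All 4 receptors couple to inhibitory G proteins of the Gi and Go classes, which lower cyclic AMP, open inwardly rectifying potassium channels and close presynaptic calcium channels.

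The precursors are told apart by how often, and in which form, they carry the opioid core, the codons for Tyr-Gly-Gly-Phe. In the transcript annotated first for each gene (GENCODE M21, GRCm38), Pdyn had 3 such cores in 248 coding codons. Penk had 7 in 268 codons and Pomc had 1 in 235, at codon 205. Pnoc had no Tyr-Gly-Gly-Phe in 187 codons and 1 variant core, Phe-Gly-Gly-Phe, at codon 141. The first core of Penk, Pomc and Pnoc is shown to let the common form and the variant be compared. Capitals mark the 12 bases of each core.
Penk, chr4:4134328-4134354, minus strand: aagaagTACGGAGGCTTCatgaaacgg
Pomc, chr12:3960367-3960393, plus strand: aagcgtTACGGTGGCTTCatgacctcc
Pnoc, chr14:65404872-65404898, minus strand: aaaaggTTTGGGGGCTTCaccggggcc

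Library totals ran from 6611967 to 51669489 estimated counts, with both normal libraries above every tumour library. The 9 acinar markers held 33.2% and 33.1% of the counts of normal replicates 1 and 2, against at most 0.195% in a tumour. Levels are compared between libraries as CPM on library sizes scaled by the trimmed mean of M-values (TMM), written TMM CPM. The scaling factors were 0.271 and 0.263 for the normal libraries and 2.5, 2.57 and 2.19 for the tumours. Levels of different genes are compared as TPM, which corrects for transcript length. All 9 acinar markers were lower in tumour (edgeR, adjusted p under 0.05), and they summed to 41.43, 22.14 and 892.8 TMM CPM in tumours 1, 2 and 3. All 8 neuroendocrine and all 6 islet delta cell markers were higher in tumour by the same test, as were 3 of the 4 tested sympathoadrenal markers. The 4 tested sympathoadrenal markers passed the count filter of the fit only through their tumour counts. So did neuroendocrine and delta cell markers with few normal counts, such as Snap25 and Ghsr, at 0 counts in both normal libraries. How far this raised the numbers called higher was not tested. The 8 listed sympathoadrenal markers summed to 1.512 and 1.547 TMM CPM in normal pancreas and to 35.11, 21.34 and 24.31 in the tumours, with Dbh, the noradrenaline-making enzyme, at 0 counts in all 3 tumours. In bulk tissue, fewer cells of a type and less RNA per cell cannot be told apart.

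Pdyn was not counted in normal pancreas and was abundant in tumours, at very unequal levels. It had 0 counts in both normal libraries and 29112, 896 and 3377 counts in tumours 1, 2 and 3. The corresponding TPM were 322.7, 10.83 and 76.86, which ranked Pdyn 52nd, 1895th and 183rd among 21900 protein-coding genes in the 3 tumours. No tumour came near either normal library. Against the limit that 3 counts over both normal libraries would set, 0.1119 TMM CPM, the pooled tumour level was at least 3536-fold higher. Tumour by tumour it was at least 6913-fold, 247.9-fold and 2089-fold higher. The pooled bound depended on which tumour was included and was 817-fold without tumour 1 and 5575-fold without tumour 2. Without normal replicate 1 or 2 the floor is set by 1 library, and the bound was 1791-fold or 1745-fold. The gene spans chr2:129686565-129699844 on the minus strand (GRCm38).

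**Figure D1:**
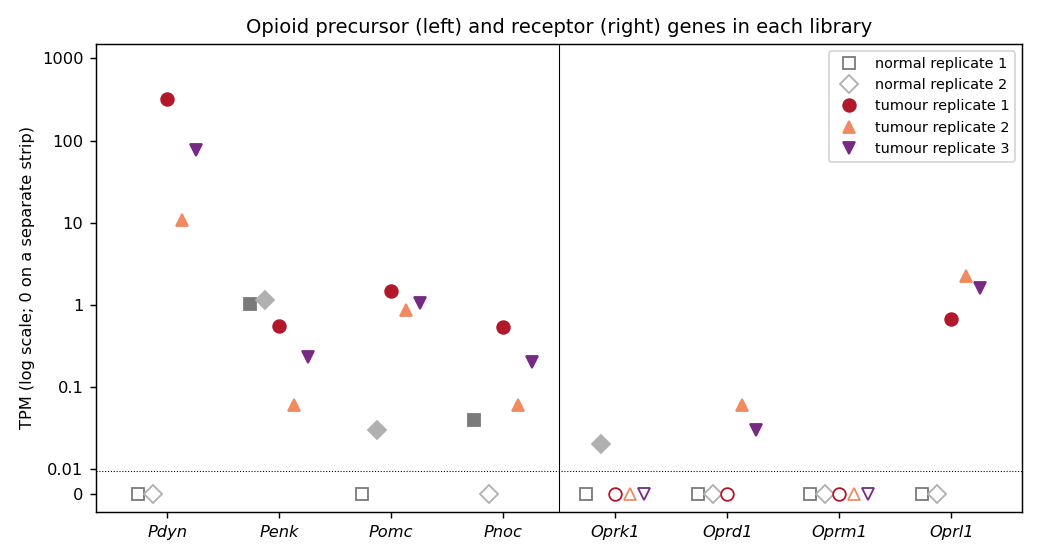
TPM of the 4 precursor genes (left) and 4 receptor genes (right) in each of the 5 libraries, on a log axis with values of 0 as open symbols on a strip below it. Each symbol is 1 library. Pdyn ran from 10.83 to 322.7 TPM in the tumours and was 0 in normal pancreas, while no other gene of the group exceeded 2.24 TPM in any library.

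On the TMM scale and in TPM, Penk was lower in tumour than in normal pancreas, the opposite of Pdyn. Penk was the only precursor with a clear count in both normal libraries. It had 47 and 60 counts in normal pancreas and 29, 3 and 6 in tumours 1, 2 and 3. In TPM this was 1.03 and 1.13 in normal pancreas and 0.55, 0.06 and 0.23 in the tumours, so that every tumour lay below both normal libraries. The pooled TMM CPM was 8.862-fold lower in tumour (95% exact binomial interval 6.068 to 13.19, counting error only), and 20.73-fold lower without tumour 1. Relative to total counts, without TMM scaling, the groups overlapped, at 0.962 and 1.161 CPM in normal pancreas against 1.924, 0.238 and 0.907 in the tumours, and the log2 difference was 0.06 instead of -3.15. That change of scale moved the median of all genes tested from 0.38 to 3.55 in log2. Penk lies at chr4:4133531-4138819 on the minus strand and shares exon sequence with A830012C17Rik on the other strand, which had 0 counts in all libraries.

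Pomc was low but present in every tumour. Counts were 0 and 1 in normal pancreas and 49, 26 and 17 in tumours 1, 2 and 3, or 1.47, 0.86 and 1.04 TPM in the tumours. All 3 tumours were above both normal libraries, and the pooled ratio of 29.23 rests on 1 normal count (95% exact interval 5.118 to 1167). Without normal replicate 2, which held that count, Pomc was at least 4.808-fold higher, and without normal replicate 1 the ratio was 14.81. Tbx19 and Pitx1, factors that mark the pituitary corticotrophs in which Pomc is chiefly expressed, had 0 counts in all 5 libraries. Crhr1, the last of the 3 corticotroph markers listed, was at 0.06194 TMM CPM in tumour 2 and at 0 elsewhere. Receptors and partners for the other Pomc products were at or near 0. None of the 8 melanocortin receptor list genes in the table passed the count filter, and the highest of them in any tumour, the corticotropin receptor accessory gene Mrap, reached 0.3987 TMM CPM.

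Pnoc was close to the limit of detection. Counts were 3 and 0 in normal pancreas and 32, 3 and 6 in the tumours. The groups overlapped, since tumour 2 (0.093 TMM CPM) lay below normal replicate 1 (0.227 TMM CPM). The pooled ratio was 4.342 (95% exact interval 1.385 to 21.92). It was 1.721 without tumour 1 (0.4294 to 9.882) and 2.143 without normal replicate 2 (0.6836 to 10.82). Both of these intervals include 1, but they hold counting error only and cannot decide whether the groups differ. Without normal replicate 1 it was at least 2.2-fold higher, and without tumour 2 the ratio was 6.521.

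The make-up of the precursor mRNA thus differed between the tissues. Penk gave 96.26% and 97.41% of the summed precursor TPM in normal pancreas, where that sum was only 1.07 and 1.16 TPM. Pdyn gave 99.22%, 91.7% and 98.12% of it in tumours 1, 2 and 3, where the sums were 325.3, 11.81 and 78.33 TPM. Pomc came next in every tumour, with its largest share, 7.282%, in tumour 2, where Pdyn was lowest.

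Among the receptors only Oprl1, the nociceptin receptor, was counted in every tumour. It had 0 counts in both normal libraries and 78, 194 and 77 in tumours 1, 2 and 3, or 0.67, 2.24 and 1.62 TPM. The pooled tumour level was at least 36.96-fold above the normal floor, and with 1 normal library left out at least 18.24-fold. Without tumour 1 it was at least 51.81-fold. Oprl1 lies at chr2:181715016-181720985 on the plus strand. It gave 100%, 97.39% and 98.18% of the receptor TPM in the 3 tumours.

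The receptors that the peptides of Pdyn, Penk and Pomc prefer were at or near 0. Oprk1, the kappa receptor, had 1 count in normal replicate 2 and none elsewhere, so a pooled tumour level of up to 0.03556 TMM CPM would go unseen. Oprm1, the mu receptor, had 0 counts in all 5 libraries. It shares exon sequence with Ipcef1 on the other strand, which had 372 counts over the 5 libraries, and no label says whether counting used strand. Oprd1, the delta receptor, had 9 counts in tumour 2, 2 in tumour 3 and none in tumour 1 or normal pancreas. Its pooled tumour level was at least 1.165-fold above the normal floor, and at or under that floor when tumour 2 or either normal library was left out.

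Of the 8 genes, 5 passed the count filter of the fit across all genes (Pdyn, Penk, Pomc, Pnoc and Oprl1), 4 of them (all but Penk) through their tumour counts. Every tumour was above both normal libraries for Pdyn, Pomc and Oprl1, and below both for Penk. Over the 16810 genes tested these shares were 46.8% above and 34.2% below. Since the group was chosen on this contrast, nothing is read from that count.

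The 3 tumours differed in Pdyn far more than in most genes at that level. The highest tumour TPM was 29.8 times the lowest. Among 1990 protein-coding genes with a mean tumour TPM of 10 or more, the median ratio was 1.372 and 24 genes (1.206%) had a larger ratio than Pdyn. Of these 24 genes, 18 were highest in tumour 3, where residual acinar transcripts were most abundant, and 15 were lower in tumour than in normal pancreas (edgeR, adjusted p under 0.05). Just 3 of the 24 were higher in tumour by that test, and all 3 encode peptide hormones: Gcg, the glucagon precursor, Npy, neuropeptide Y, and Pyy, peptide YY. In tumours 1, 2 and 3, Gcg measured 439.7, 2.15 and 66.4 TPM and Npy 175.6, 3.5 and 64.51 TPM, the same order of tumours as Pdyn. Pyy measured 5300, 132.9 and 93.28 TPM, so it shared with Pdyn the high value of tumour 1 but not the order of the others.

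**Figure D2:**
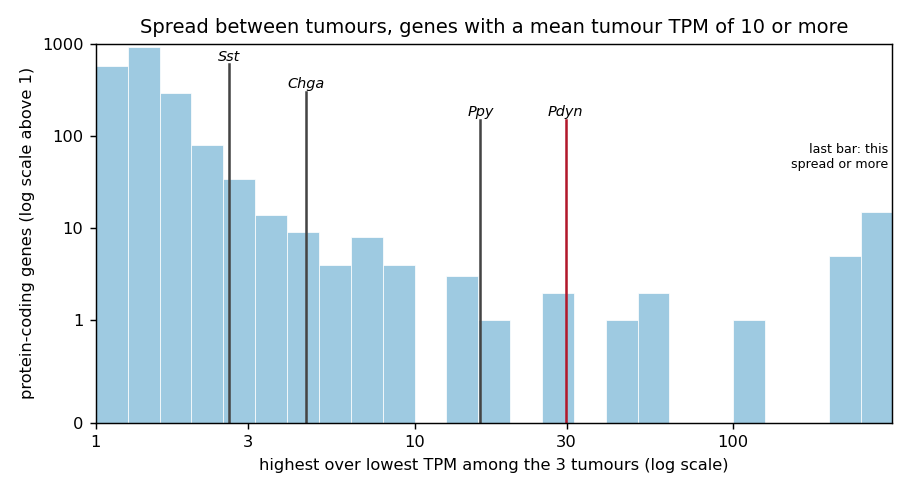
Ratio of the highest to the lowest TPM among the 3 tumours (log axis) over 1990 protein-coding genes with a mean tumour TPM of 10 or more; bars count genes on a scale that is logarithmic above 1, and the last bar also holds all larger ratios. Vertical lines mark single genes: Sst at 2.612, Chga at 4.559, Ppy at 16.09 and Pdyn at 29.8, against a median of 1.372.

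Somatostatin, granin and convertase genes varied less than Pdyn between the same tumours, but more than most genes. The somatostatin gene Sst, an islet delta cell marker, had a ratio of 2.612, the granins Chga and Chgb of 4.559 and 2.332, and the convertase Pcsk2 of 3.011. Of the 1990 genes compared, 4.724% had a larger ratio than Sst, 2.563% than Chga, 5.829% than Chgb and 3.719% than Pcsk2. Ppy, pancreatic polypeptide, had a ratio of 16.09. Pdyn was 94.47%, 14.45% and 27.42% of the Chga TPM in tumours 1, 2 and 3, and 46.03%, 3.603% and 15.94% of the Chgb TPM. The ratio of Pdyn to another gene still spanned 6.537-fold for Chga, 9.898-fold for Pcsk2, 11.41-fold for Sst and 12.78-fold for Chgb. Tumour 2, with the least Pdyn, also had the lowest neuroendocrine marker sum, at 2386 TMM CPM against 4645 and 5007 in tumours 1 and 3. It had the highest sums of T cell markers (11.46 against 1.116 and 0.831) and B cell markers (87.12 against 14.48 and 13.23). The part of these values in the low Pdyn of tumour 2 was not tested.

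The other opioid genes did not share 1 order of tumours. Penk (0.771, 0.093 and 0.415 TMM CPM) and Pnoc (0.85, 0.093 and 0.415) were highest in tumour 1 and lowest in tumour 2, as Pdyn was, but from 3 counts each in tumour 2. Pomc ranged only 1.617-fold, from 0.805 to 1.302 TMM CPM. Oprl1 went the other way, with 2.073 TMM CPM in tumour 1 against 6.008 and 5.332 in tumours 2 and 3, a 2.898-fold range. No test was made of these orders, which rest on 1 library each.

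Likeness to Pdyn was measured as the distance between the log2 TMM CPM profiles of genes, after each was centred on its own mean over the 5 libraries, among 16809 genes. The nearest were Tnr, an extracellular matrix protein of the nervous system (distance 1.801), Ppy, pancreatic polypeptide (2.007), Rbp4, a retinol carrier (2.335), the prohormone convertase Pcsk2 (2.369) and the granin Scg3 (2.501). Tnr had 0 and 1 counts in normal pancreas and 231, 33.05 and 106 TMM CPM in tumours 1, 2 and 3, beside 773.7, 27.75 and 233.9 for Pdyn. Ppy had 1028, 68.35 and 83.24 TMM CPM. With 5 libraries in 2 groups, these distances mostly record how far a gene differs between the tissues and how it varies over 3 tumours.

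**Figure D3:**
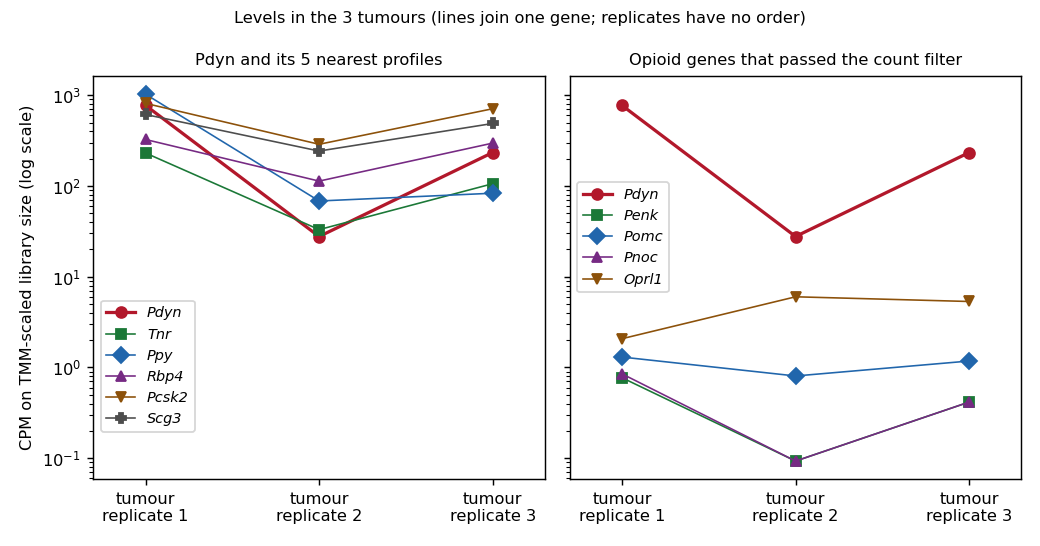
TMM CPM (log axis) in the 3 tumours for Pdyn with its 5 nearest profiles (left) and for the opioid genes that passed the count filter (right); each point is 1 library and lines join the points of 1 gene. In tumour 2 Pdyn was at 27.75 against 288.2 for Pcsk2 and 242.8 for Scg3, and Oprl1 was lowest in tumour 1.

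Nearest profiles were also found for Penk, Pomc and Oprl1, whose low counts and the added 0.5 CPM shorten all distances, so these are not compared with those of Pdyn. The nearest to Penk were Ccdc141 (distance 0.1999), Smim6 and Stk40, and those to Pomc were Luc7l2 (0.06891), Stx1a and B130055M24Rik. Frmd5 (0.2046), Arnt2 and Hist1h3g were nearest to Oprl1. Frmd5 had 1 count in each normal library and 2.631, 6.349 and 5.471 TMM CPM in tumours 1, 2 and 3, again lowest in tumour 1.

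The genes that opioid peptides and receptors work with were tested in the fit across all genes (edgeR, quasi-likelihood, adjusted over 16810 genes). Of 94 listed genes 80 were tested, and 38 of them (47.5%) were higher and 22 (27.5%) lower in tumour. Over all genes tested 39.2% were called higher and 27.8% lower, and the median log2 fold change was 1.18 for the lists and 0.38 for all genes. Of the calls on the lists 63.33% were higher, against 97.47% relative to total counts and 94.64% in TPM (pseudocount 1). All 38 higher genes kept a positive log2 difference relative to total counts and in TPM. Of the 22 lower genes, 20 had a positive one relative to total counts (all but Anpep and Ptf1a), so each fall given below other than those is a fall relative to the TMM scale. Of the 80, 8 had 0 counts in both normal libraries and so entered the test only through their tumour counts. Others with few normal counts also passed the filter only through the tumours, such as Scg5 (4 and 2 counts in normal replicates 1 and 2), Rgs9 (3 and 1) and Gnao1 (6 and 12). How far this raised the share called higher was not tested.

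Of the 10 enzymes and chaperones that turn precursors into peptides, 6 (60%) were higher, 3 (30%) lower and 1 not past the threshold. Over all genes tested 39.2% were higher and 27.8% lower. Scg5, the 7B2 chaperone of Pcsk2, rose from 0.3024 and 0.1473 TMM CPM in normal pancreas to 163.2, 177.8 and 168.9 in the tumours (log2 fold change 9.53, or 10.12 without normal replicate 1, SE 0.29, adjusted p 1.21e-05). Those values were nearly equal over the tumours, unlike Pdyn. Pcsk1n, which encodes an inhibitor of Pcsk1, and Cpe, the carboxypeptidase that trims basic residues, rose by 8.60 and 6.32. Among the genes singled out after their values were seen, the dynorphin-cutting convertase Pcsk2 rose by 9.45 and Pam, which amidates peptide ends, by 4.50. Pcsk1, the other granule convertase, rose by 1.34 (SE 0.41, adjusted p 0.0266). That call was lost without normal replicate 1 (adjusted p 0.14) or normal replicate 2 (adjusted p 0.108). Furin, Rnpep and Ctsl, which cleave precursors or peptides in many cell types, were the 3 lower genes on the TMM scale. Relative to total counts their log2 differences were 1.28, 1.09 and 2.32, and the call on Ctsl was lost without either normal library (adjusted p 0.0887 and 0.0749).

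Of 9 peptide-degrading enzymes, 5 (55.56%) were lower and 2 (22.22%) higher, against 27.8% and 39.2% of all genes tested. Anpep, the aminopeptidase that removes the first tyrosine of enkephalins, fell from 204.8 and 224.4 TMM CPM to 4.146, 3.624 and 3.255 (log2 fold change -5.86, SE 0.17, adjusted p 1.21e-05). Ide, insulin-degrading enzyme, fell 4.063-fold in pooled TMM CPM, but its log2 difference was 1.18 relative to total counts, and -0.28 and not past the threshold in TPM (limma, adjusted p 0.138). Ece2, a relative of neprilysin, was not counted in normal pancreas and reached 18.34, 23.35 and 25.9 TMM CPM, at least 192.6-fold above the floor, and could be called higher only. Mme, neprilysin itself, was low in both tissues and not past the threshold.

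**Figure D4:**
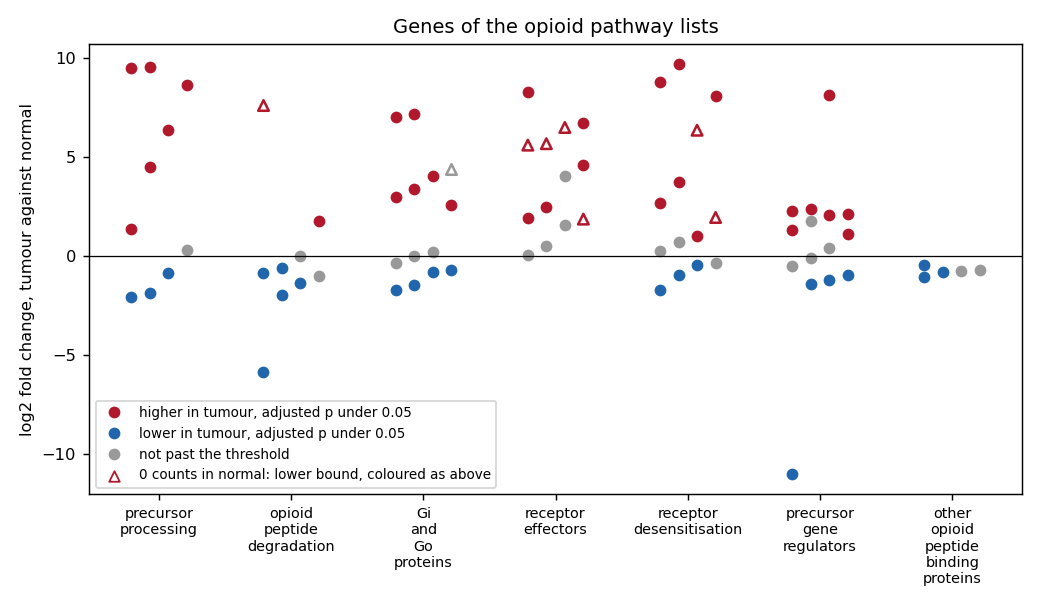
Log2 fold change, tumour against normal, of the 80 tested genes of 7 opioid pathway lists; each circle is 1 gene, and each open triangle is a gene with 0 counts in normal pancreas drawn at its lower bound. The effector list has 9 genes higher and 0 lower, and the list of other opioid peptide binding proteins 0 higher and 3 lower. Over all genes tested 39.2% were called higher and 27.8% lower. The 9 effectors called higher would not have passed the count filter on their normal counts alone.

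Of 14 tested G protein subunits, 6 (42.86%) were higher and 4 (28.57%) lower, near the 39.2% and 27.8% of all genes tested. Gnao1, the Go alpha subunit of neurons and endocrine cells, rose from 0.4537 and 0.8838 to 79.12, 90.12 and 122.7 TMM CPM (log2 fold change 7.17, SE 0.38, adjusted p 3.5e-05). Gng4, a gamma subunit, and Gnaz, the pertussis toxin-insensitive alpha subunit, rose by 6.98 (7.86 without normal replicate 1) and 2.58. Of the widely expressed alpha subunits Gnai1, Gnai2 and Gnai3, singled out after their values were seen, Gnai1 and Gnai3 fell by 1.45 and 0.84. Gnai2 was not past the threshold (log2 fold change -0.03, edgeR, adjusted p 0.86). Relative to total counts the log2 differences of Gnai1 and Gnai3 were 1.73 and 2.34.

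Of 13 tested effectors, 9 (69.23%) were higher and 0 lower, against 39.2% and 27.8% of all genes tested. Of these 9, 4 (Kcnj3, Kcnj6, Kcnj9 and Adcy8) had 0 counts in both normal libraries and could be called in that direction only. The other 5 also needed their tumour counts to pass the count filter. Their counts in normal replicates 1 and 2 were 27 and 39 (Cacna1a), 1 and 0 (Cacna1b), 1 and 0 (Cacna1e), 3 and 1 (Adcy1) and 29 and 19 (Adcy3). Nothing is therefore read from the absence of lower effectors. The potassium channel subunit Kcnj6 was not counted in normal pancreas and reached 5.236, 5.172 and 7.687 TMM CPM, at least 50.31-fold above the floor. Among the presynaptic calcium channel genes, Cacna1a rose by 2.48 in log2. Cacna1b was also called higher, but from 1 normal count, so that its pooled ratio of 116.6 has a 95% exact interval of 20.8 to 4618. Its fitted log2 fold change was 5.78 without normal replicate 2. It was 9.75 without normal replicate 1, which held that count, but no normal count was then left, so that size is not a measured one. Kcnj3, the usual partner of Kcnj6 singled out after its values were seen, was unequal between the tumours in the way Oprl1 was, at 0.9302 TMM CPM in tumour 1 against 19.36 and 12.33 in tumours 2 and 3. It was not called without normal replicate 1 or 2 (edgeR, adjusted p 0.0749 and 0.0757). Counting the 4 effectors at 0 in normal pancreas at their bounds, the median log2 fold change of this list was 4.04.

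Of 14 genes that end receptor signalling, 8 (57.14%) were higher and 3 (21.43%) lower, against 39.2% and 27.8% of all genes tested. All of the 8 except Grk5 (38 and 47 counts in normal replicates 1 and 2) passed the count filter only through their tumour counts. How far this raised the share called higher was not tested. The RGS proteins, which speed up the shut-off of Gi and Go, gave the named rises. Rgs4 rose from 0.7561 and 0.4419 to 174.8, 157.4 and 149.4 TMM CPM (log2 fold change 8.06, SE 0.28, adjusted p 1.72e-05). Rgs9 rose by 8.76, or 9.74 without normal replicate 1. Rgs17 was called higher from 1 normal count, with a pooled ratio of 864.6 (95% exact interval 155 to 34161.4). Its fitted log2 fold change was 8.77 without normal replicate 1. It was 12.72 without normal replicate 2, which held that count, but no normal count was then left, so that size is not a measured one. The receptor-binding arrestins Arrb1 and Arrb2 were among the lower genes on the TMM scale, at log2 fold changes of -1.72 and -0.98, against 1.48 and 2.21 relative to total counts. The call on Arrb2 was lost without normal replicate 1 (adjusted p 0.143) or tumour 3 (adjusted p 0.0528).

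Of 15 tested regulators of precursor genes, 7 (46.67%) were higher and 4 (26.67%) lower, near the 39.2% and 27.8% of all genes tested. Neurod1, which acts on Pomc in corticotrophs, had 0 and 0.1473 TMM CPM in normal pancreas and 23.76, 18.18 and 25.07 in tumours (log2 fold change 8.12, SE 0.51, adjusted p 5.7e-05). The size of that rise rests on 2 counts in normal replicate 2: the pooled ratio was 292.8 (95% exact interval 80.94 to 2420). The fitted log2 fold change was 7.19 without normal replicate 1. It was 12.09 without normal replicate 2, but no normal count was then left, so that size is not a measured one. Crem, a cyclic AMP-responsive factor, rose by 2.10. Ptf1a, an acinar and spinal cord factor, fell from 106.8 and 119.7 TMM CPM to 0, 0 and 0.277, with all 4 tumour counts in tumour 3. Its fitted log2 fold change was -11.01, with -10.21 without tumour 1 and -10.35 without tumour 2. It was -14.40 without tumour 3, but no tumour count was then left, so that size is not a measured one. Kcnip3, the calcium sensor known as DREAM that represses Pdyn, was singled out after its values were seen. It was not past the threshold (log2 fold change 1.73, adjusted p 0.131) and measured 0.6113, 4.181 and 5.471 TMM CPM in tumours 1, 2 and 3, so its order over the tumours was neither that of Pdyn nor its reverse.

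Of 5 tested genes for other proteins that bind opioid peptides, 3 (60%) fell on the TMM scale and 0 were called higher. Over all genes tested 27.8% were lower and 39.2% higher. Ogfr, the opioid growth factor receptor, and its relative Ogfrl1 were among the 3 and fell by 0.48 and 1.08 in log2. Both had a positive difference relative to total counts and in TPM, so their direction depends on the scaling. The call on Ogfr was lost without normal replicate 1 or 2, tumour 1 or tumour 3 (adjusted p 0.0533 to 0.155), with upper-quartile scaling (0.0746) and with no count filter (0.0652), and that on Ogfrl1 without normal replicate 2 (adjusted p 0.0588).

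Promoter windows of 250 bases before the start were held for 5 of the 8 genes (RefSeq, GRCm38.p6; Pdyn, Pomc, Oprd1, Oprm1 and Oprl1), in 10 windows. They are given for Pdyn and Pomc, the precursors present in every tumour and higher there than in either normal library. Capitals mark matches, on either strand, to the motifs searched: the cyclic AMP response element TGACGTCA, the AP-1 site TGANTCA, the TATA box TATAAA and the E-box form CAGNTG, none of which contains another.
Pdyn promoter, chr2:129699939-129700188, minus strand: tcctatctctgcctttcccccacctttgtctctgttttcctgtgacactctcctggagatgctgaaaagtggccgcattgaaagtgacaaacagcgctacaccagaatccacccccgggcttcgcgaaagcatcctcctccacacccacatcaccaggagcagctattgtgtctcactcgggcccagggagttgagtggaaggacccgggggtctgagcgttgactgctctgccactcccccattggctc
Pomc promoter, chr12:3954695-3954944, plus strand: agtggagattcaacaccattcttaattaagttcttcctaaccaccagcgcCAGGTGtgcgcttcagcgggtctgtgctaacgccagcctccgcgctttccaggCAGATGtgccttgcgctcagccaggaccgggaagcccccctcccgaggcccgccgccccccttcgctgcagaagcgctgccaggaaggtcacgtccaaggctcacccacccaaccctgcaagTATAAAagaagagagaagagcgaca
The Pomc window held TATAAA 25 bases before the start and CAGNTG 200 and 147 bases before it, and the Pdyn window held none of the 4 motifs. The RefSeq start of Pdyn lies 94 bases upstream of the GENCODE start, so the bases next to the latter were not searched. TATAAA was present in 12.37% and CAGNTG in 44.82% of all 32851 windows of this length, and TGACGTCA and TGANTCA in 1.55% and 6.75%. Over the 10 windows, TATAAA was found for Oprl1 and Pomc and CAGNTG for Oprd1, Oprl1 and Pomc.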

How the data were processed

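The authors deposited estimated counts and TPM per gene, made with STAR 2.7 and RSEM 1.31 after Trim Galore 0.60 on mm10/GRCm38, per the submitters' processing notes. The sources used here give neither settings nor strand. Deposited FPKM values were not used, and the 92 spike-in rows were left out. Counts were rounded and fitted with edgeR 4.0.16 (R 4.3.3): glmQLFit and glmQLFTest, TMM scaling, filterByExpr, Benjamini-Hochberg adjustment over 16810 genes, adjusted p under 0.05. The standard error (SE) is of the log2 fold change. The script was checked on simulated counts in which few genes differed between the groups, so the check does not bear on the choice of scaling.

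For genes at 0 counts in both normal libraries, folds are lower bounds against 3 counts over the group. Ratios of pooled counts carry 95% exact binomial intervals. Both reflect counting error alone, as the labels mention no molecular identifiers and reads are not separate molecules. Profiles were compared as Euclidean distances of log2(TMM CPM + 0.5), for opioid genes with at least 50 counts in all, which left out Pnoc (44 counts).

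The 8 opioid genes and the gene lists were chosen with earlier results of these data known. The text names all 8, up to 3 called genes with the smallest p per list, the nearest profiles (5 for Pdyn, 3 for others) and the genes of any count of 5 or fewer; other names are marked as chosen after their values were seen. A few items are not reported here. Alternatives were total counts, upper-quartile scaling, no filter, protein-coding genes only, DESeq2 1.42.0, limma 3.58.1 on log2(TPM + 1) or log2(TPM + 0.1), tumours 1 and 2 summed, and each library left out. Coordinates are on GRCm38 (GENCODE M21).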

Additional observations from a re-analysis of the deposited data

How the results depend on the processing

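Relative to total counts, 15681 genes were called higher and 398 lower in tumour instead of 6587 and 4669, and 77 and 2 instead of 38 and 22 on the pathway lists. With limma on log2(TPM + 1) these numbers were 10665 and 1173 over all genes, and on log2(TPM + 0.1) 11558 and 1192, with 3 pathway genes lower under either. Over the fits that left out 1 library, 4631 to 6581 genes were called higher and 3443 to 4823 lower, and 33 to 41 and 16 to 22 on the lists. Direction reversed relative to total counts for Penk (0.06), Ide (1.18), Ogfr (2.7) and Ogfrl1 (2.09), in log2. In TPM with pseudocounts of 1 and 0.1 it reversed for Ogfr (0.82 and 1.05) and Ogfrl1 (0.16 and 0.23). Furin, Rnpep, Ctsl, Gnai1, Gnai3, Arrb1 and Arrb2 also turned positive relative to total counts, and Ctsl (0.42), Gnai3 (0.51) and Arrb2 (0.39) on log2(TPM + 1). The other opioid genes kept their direction under every alternative that gave a value. How far the acinar transcripts of the normal libraries shift each scaling was not tested. No paired analysis was possible because the normal and tumour samples share no animal or batch label. The normal libraries limit the receptors and Pomc, whose normal levels rest on at most 1 count.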

Other observations

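Tumour 1, where Pdyn was highest, was also the highest for 5 of the 24 genes that varied more between the tumours than Pdyn did. Besides the peptide genes Gcg, Npy and Pyy these were Gip, the incretin of intestinal K cells, and Ambp, a plasma protein precursor. Neither Gip nor Ambp was among the genes called higher or lower in tumour, a group that genes outside the count filter cannot enter. Gip measured 58.15 TPM in tumour 1 against 0.06 and 0.11 in tumours 2 and 3 and was 0 in both normal libraries. Ambp measured 114.8 TPM against 2.81 and 16.3, and 1.97 and 1.6 in normal pancreas. The gene that was highest in tumour 2 was Ly6c2, a surface antigen of blood cells, at 30.85 TPM against 5.49 and 0.29. These genes were picked for their spread, so the values are a description.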
